A study of Zea mays with 21 samples.

Results

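The step from 4 h to 6 h of waterlogging stress (WS) compares the 3 WS_6h libraries with the 3 WS_4h libraries, 6 of the 21 libraries of the series. All 21 libraries came from primary root tips of seedlings of the maize inbred line B73, with no transgene or mutation. WS_6h and WS_4h plants had stood under a shallow layer of water for 6 h and 4 h, WS_2h plants for 2 h, and WS_0h plants were collected before the water was added. Each library was a pool of root tips from 1 plot, 3 libraries were made per time point, and flooding began at the same hour of the day, so hours of stress and time of day cannot be told apart. The values are TPM, that is, read counts corrected for gene length and scaled to 1 total per library. Of 23175 listed protein coding genes (PCgenes), 22403 averaged over 1 TPM in these 6 libraries and were compared. The sources used here pair few of these IDs with gene names, so markers of root tips or other tissues could not be looked up and the tissue label was not checked.

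Root cells under water run short of oxygen. They then make ATP by glycolysis and regenerate NAD+ by fermenting pyruvate to ethanol through pyruvate decarboxylase and alcohol dehydrogenase, while costly biosynthesis is turned down. In Arabidopsis, group VII ethylene response factors are stable only at low oxygen and switch the core hypoxia genes on, and ethylene, made from ACC by ACC synthase and ACC oxidase, builds up in submerged tissue.

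Values were compared as log2(TPM + 1) with limma, fitting all 21 libraries together by their 7 time points. A call needed a log2 difference beyond 1 in either direction and a p under 0.05 after Benjamini-Hochberg adjustment. Because 1 TPM was added, differences of low genes are understated. Where nothing else is said, a difference below is WS_6h minus WS_4h on this scale. The p-values measure the spread between these pools of root tips. Read depth is not in the values used here.

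The WS_6h libraries were closer to each other than the WS_4h libraries were. Pearson correlations across genes were 0.974 to 0.985 within WS_6h and 0.942 to 0.975 within WS_4h, and the median PCgene had a standard deviation between replicates of 0.169 at WS_6h and 0.209 at WS_4h on the log2 scale. Across the step the correlation was 0.69 to 0.864, lowest with WS_4h replicate 1 (0.69 to 0.757) and highest with WS_4h replicate 2 (0.805 to 0.864). The listed PCgenes held 626928 to 668642 TPM in the WS_6h libraries and 546858 to 554204 TPM in the WS_4h libraries. The 10 most abundant PCgenes took 6.19% to 7.60% of that total at WS_6h and 8.80% to 9.64% at WS_4h. The median difference of all PCgenes was 0.04, and 0.01 after median-ratio rescaling of the libraries. With that rescaling 4025 PCgenes rose and 3347 fell in the step, against 4160 and 3194 without it.

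Between WS_4h and WS_6h, 4160 of the 22403 PCgenes rose (18.6%) and 3194 fell (14.3%), 32.8% in all. Of these, 938 rose and 652 fell by more than 2 on the log2 scale, and 39 rose and 34 fell by more than 4. The 3 WS_6h libraries all lay above the 3 WS_4h libraries in 8325 PCgenes (37.2% of those tested) and all below in 7759 (34.6%). A pseudocount of 0.1 TPM gave 4982 risers and 4010 fallers. Leaving out single libraries, risers numbered 3676 (without WS_4h replicate 1) to 4510 (without WS_4h replicate 2), and fallers 2824 (without WS_4h replicate 1) to 3530 (without WS_6h replicate 3).

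**Figure D1:**
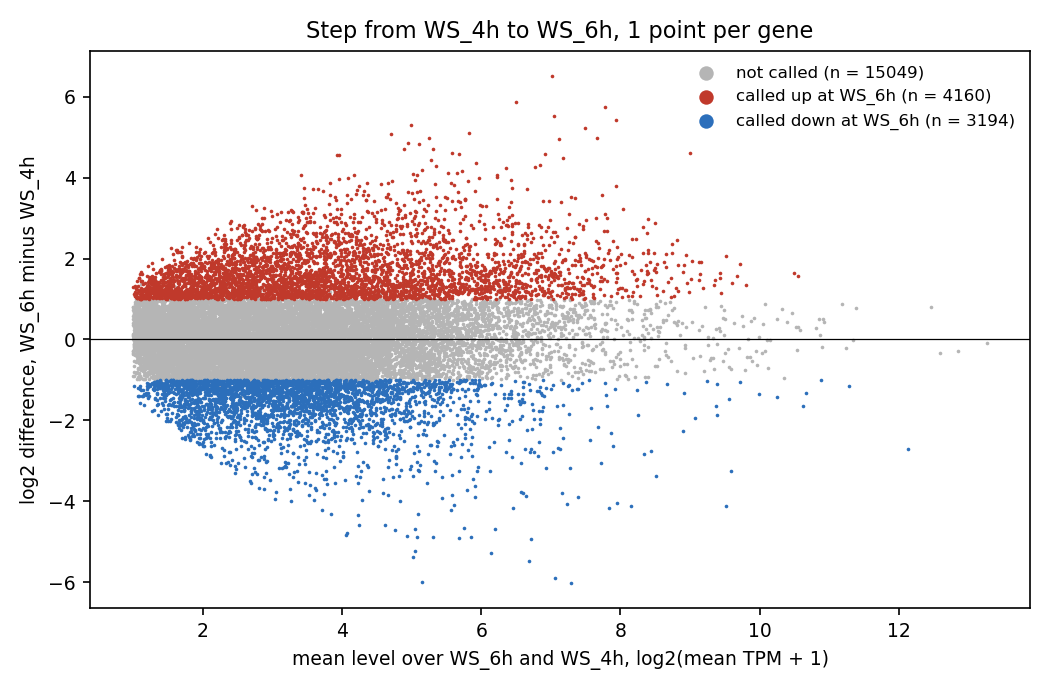
Each point is 1 of the 22403 PCgenes, with its mean level over the WS_6h and WS_4h libraries on the x axis as log2(mean TPM + 1) and its log2 difference WS_6h minus WS_4h on the y axis. Red points are the 4160 PCgenes called up, blue points the 3194 called down, and both kinds are found from the lowest levels to those above 100 TPM.

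Among PCgenes with a higher group of at least 10 TPM and groups that did not overlap, the 10 largest rises lay between 4.99 and 6.51 and the 10 largest falls between -6.0 and -4.89. The study's text does not name these IDs. Zm00001d020958 had 261.83, 291.29 and 211.5 TPM at WS_6h, against 0.28, 8.77 and 0.74 TPM at WS_4h, a difference of 6.51 ± 0.50 (SE; limma adjusted p 1.22e-08). Its mean had been 215 TPM at WS_0h and 273 TPM at WS_2h, so the WS_4h libraries alone were low. Zm00001d015133 had 210.29, 172.57 and 144.02 TPM at WS_6h and 1.07, 5.48 and 1.01 TPM at WS_4h, a difference of 5.86 ± 0.36. In the other direction, Zm00001d022383 had 2.57, 2.27 and 7.27 TPM at WS_6h, against 441.9, 217.34 and 262.61 TPM at WS_4h, a difference of -6.0 ± 0.34 (limma adjusted p 3.37e-10). Zm00001d023516 had 0.18, 0 and 0.06 TPM at WS_6h and 82.85, 49.05 and 75.39 TPM at WS_4h (-5.99 ± 0.26). All 20 of these PCgenes moved in the step against their own shift at WS_4h from WS_0h, and all 20 shifts at WS_4h had been called. Step and shift share the WS_4h libraries, so picking the largest steps favours opposite signs. Of all 4160 PCgenes that rose, 3202 had been called down at WS_4h, and of all 3194 that fell, 2635 had been called up.

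A listed 0 does not show that a gene was off, since read depth is not known here. Of those tested, 27 were listed at 0 in all 3 WS_6h libraries and above 0 in all 3 WS_4h libraries, and 3 were listed at 0 in all 3 WS_4h libraries and above 0 in all 3 WS_6h libraries.

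To describe what reversed, PCgenes were grouped by their call at WS_4h against WS_0h, which was up for 4550 (20.3%) and down for 5019 (22.4%). These comparisons share the WS_4h libraries with the step, so chance deviations of those libraries push the step against the shift, and the counts that follow are a description. Of the 4550 PCgenes up at WS_4h, 2635 (57.9%) fell in the step, 1795 (39.5%) were not called and 120 (2.64%) rose further. Of the 5019 PCgenes down at WS_4h, 3202 (63.8%) rose, 1814 (36.1%) were not called and 3 fell further. The filter on level uses the WS_4h and WS_6h libraries only, so it can drop PCgenes that went down and stayed low. With no filter 3233 rose, while those down at both times with no call in the step numbered 810 instead of 607. The share that rose therefore depends on the filter. The median PCgene that had been up kept 26.3% of its log2 shift at WS_6h (quartiles 2.39% and 66.5%), and the median PCgene that had been down kept 30.7% (quartiles 12.2% and 50.8%).

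**Figure D2:**
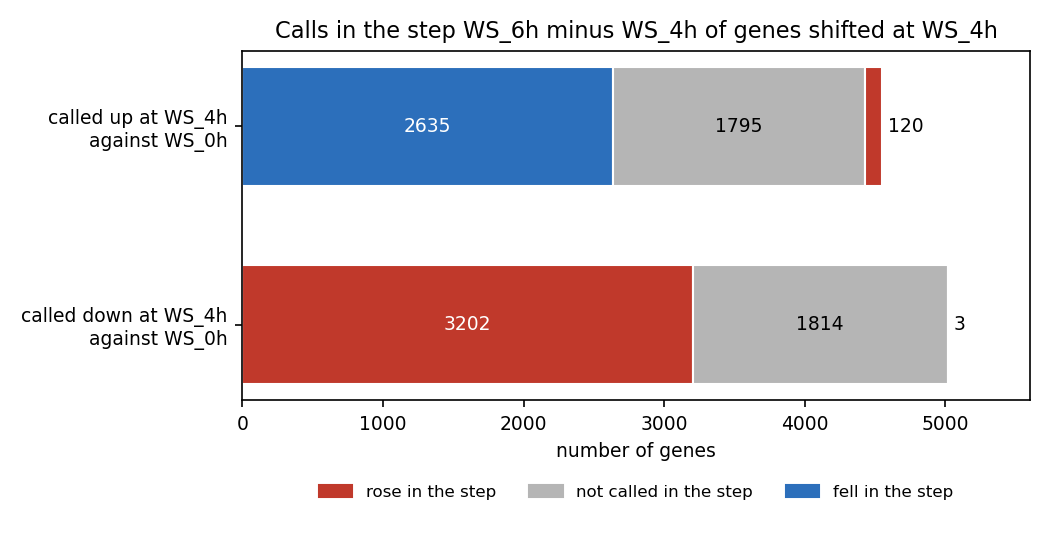
Bars give the number of PCgenes called up (upper bar, 4550) or down (lower bar, 5019) at WS_4h against WS_0h, split by their call in WS_6h minus WS_4h. Most of the upper bar fell in the step (2635) and most of the lower bar rose (3202), while 1795 and 1814 were not called.

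Reversal left most of these PCgenes without a call against WS_0h, but not all. At WS_6h, 2353 of the 2635 that fell (89.3%) were no longer called against WS_0h, 262 were still up and 20 had become down-regulated. Of the 3202 that rose, 2631 (82.2%) were no longer called, 527 were still down and 44 had become up-regulated. Across all PCgenes tested, 9.26% were called up and 6.09% called down at WS_6h against WS_0h.

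WS_6h against WS_2h shares no library with the comparison of WS_4h and WS_0h that formed these groups. PCgenes up at WS_4h still had a median difference of 0.30 between WS_6h and WS_2h (quartiles 0.08 and 0.70), and PCgenes down at WS_4h one of -0.45 (quartiles -0.70 and -0.20), against -0.04 over all PCgenes. Of the first group, 624 (13.7%) were called up at WS_6h against WS_2h and 15 down, and of the second, 455 (9.07%) were called down and 7 up. Over all PCgenes 3.53% were called up and 2.20% down in this comparison. Of all PCgenes 5.73% were called in either direction, and the 1101 shifted at WS_4h and called here numbered 772 without WS_6h replicate 3 and 1370 without WS_6h replicate 1.

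**Figure D3:**
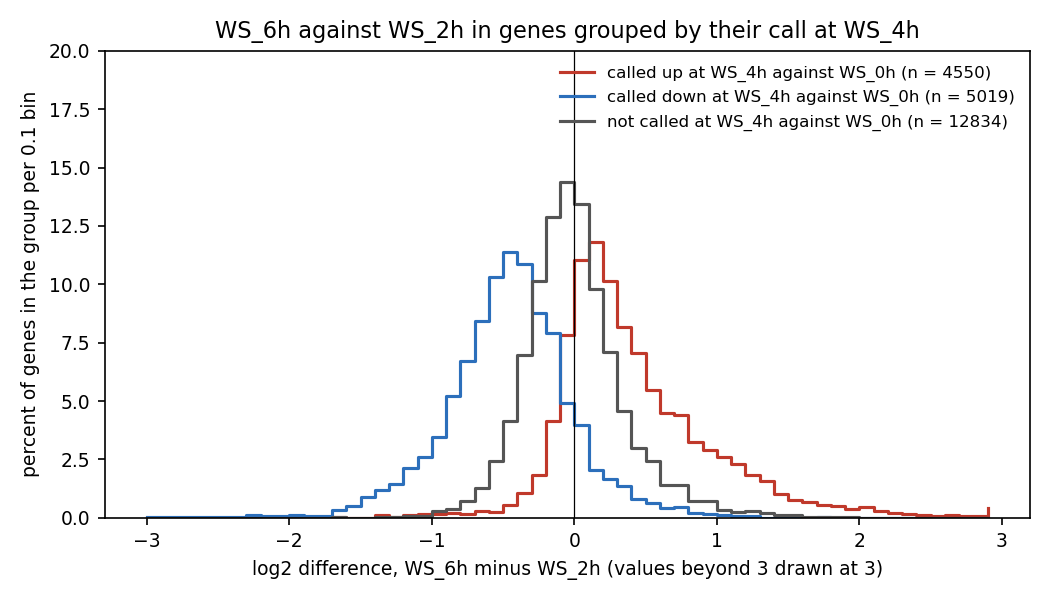
The x axis is the log2 difference WS_6h minus WS_2h and the y axis the percent of PCgenes of a group in each bin, for PCgenes called up (red), called down (blue) or not called (grey) at WS_4h against WS_0h. The red and blue curves lie on either side of the grey one, with medians of 0.30, -0.45 and -0.03.

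The later time points were also set against WS_2h. The median difference WS_8h minus WS_2h was 0.09 for PCgenes that had been up at WS_4h and -0.17 for those that had been down, against -0.02 over all PCgenes. Of the first group 207 were called up (4.55%) and 183 down (4.02%), where 1.56% and 3.52% of all PCgenes were. Of the second group 35 were called up (0.697%) and 367 down (7.31%). At WS_10h and WS_12h the medians against WS_2h were 0.18 and 0.07 for the first group, and -0.28 and -0.22 for the second, against -0.04 and -0.07 over all PCgenes. These time points and WS_2h share no library with the grouping.

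The level before the stress went with how often a shift reversed. Of PCgenes down at WS_4h, 533 of the 621 above 100 TPM at WS_0h rose again (85.8%), against 255 of the 569 under 5 TPM (44.8%). For PCgenes up at WS_4h the order was the other way round: 14 of the 44 above 100 TPM fell (31.8%), against 1751 of the 2710 under 5 TPM (64.6%). This was also computed with a pseudocount of 0.1 TPM, a choice made after the values were seen. Among PCgenes down at WS_4h, the share that rose was then 86.2% for those above 100 TPM at WS_0h and 63.4% for those under 5 TPM. Among PCgenes up at WS_4h, the share that fell was 31.8% above 100 TPM and 65.7% under 5 TPM.

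Among PCgenes without a reversal call, those called against WS_0h at both times and not in the step were examined further. Up at WS_4h and at WS_6h against WS_0h, with no call in the step, were 1001 PCgenes, whose median step was -0.06. Down at both times with no call in the step were 607 PCgenes, whose median step was 0.45, with a median of 76.4% of the log2 shift from WS_0h left. A further 794 up and 1207 down at WS_4h were called neither in the step nor at WS_6h against WS_0h. The absence of a call does not show that a level stood still. The 95% interval of the step lay within -1 and 1 for 601 of the 1001 (60.04%) and for 296 of the 607 (48.8%). Over all PCgenes the share was 44.8%, but these include the 7354 called in the step, whose intervals cannot lie within these limits. The shares therefore cannot show whether these sets held steadier than other PCgenes without a call in the step. Defined from WS_2h instead of WS_0h, where 18.1% of PCgenes were up and 22.4% down at WS_4h, the sets numbered 305 and 182. A filter on mean TPM above 5 gave 202 for the second set, and no filter gave 810.

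The genes named in the study were examined as groups by role. The study picked most of them for their expression in these same libraries, so their directions are not independent evidence. Of 63 named IDs, 54 were tested, 6 lay below the filter and 3 are not listed. In the step 15 of the 54 rose, 3 fell and 36 were not called, where 18.6% of all PCgenes rose and 14.3% fell.

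**Figure D4:**
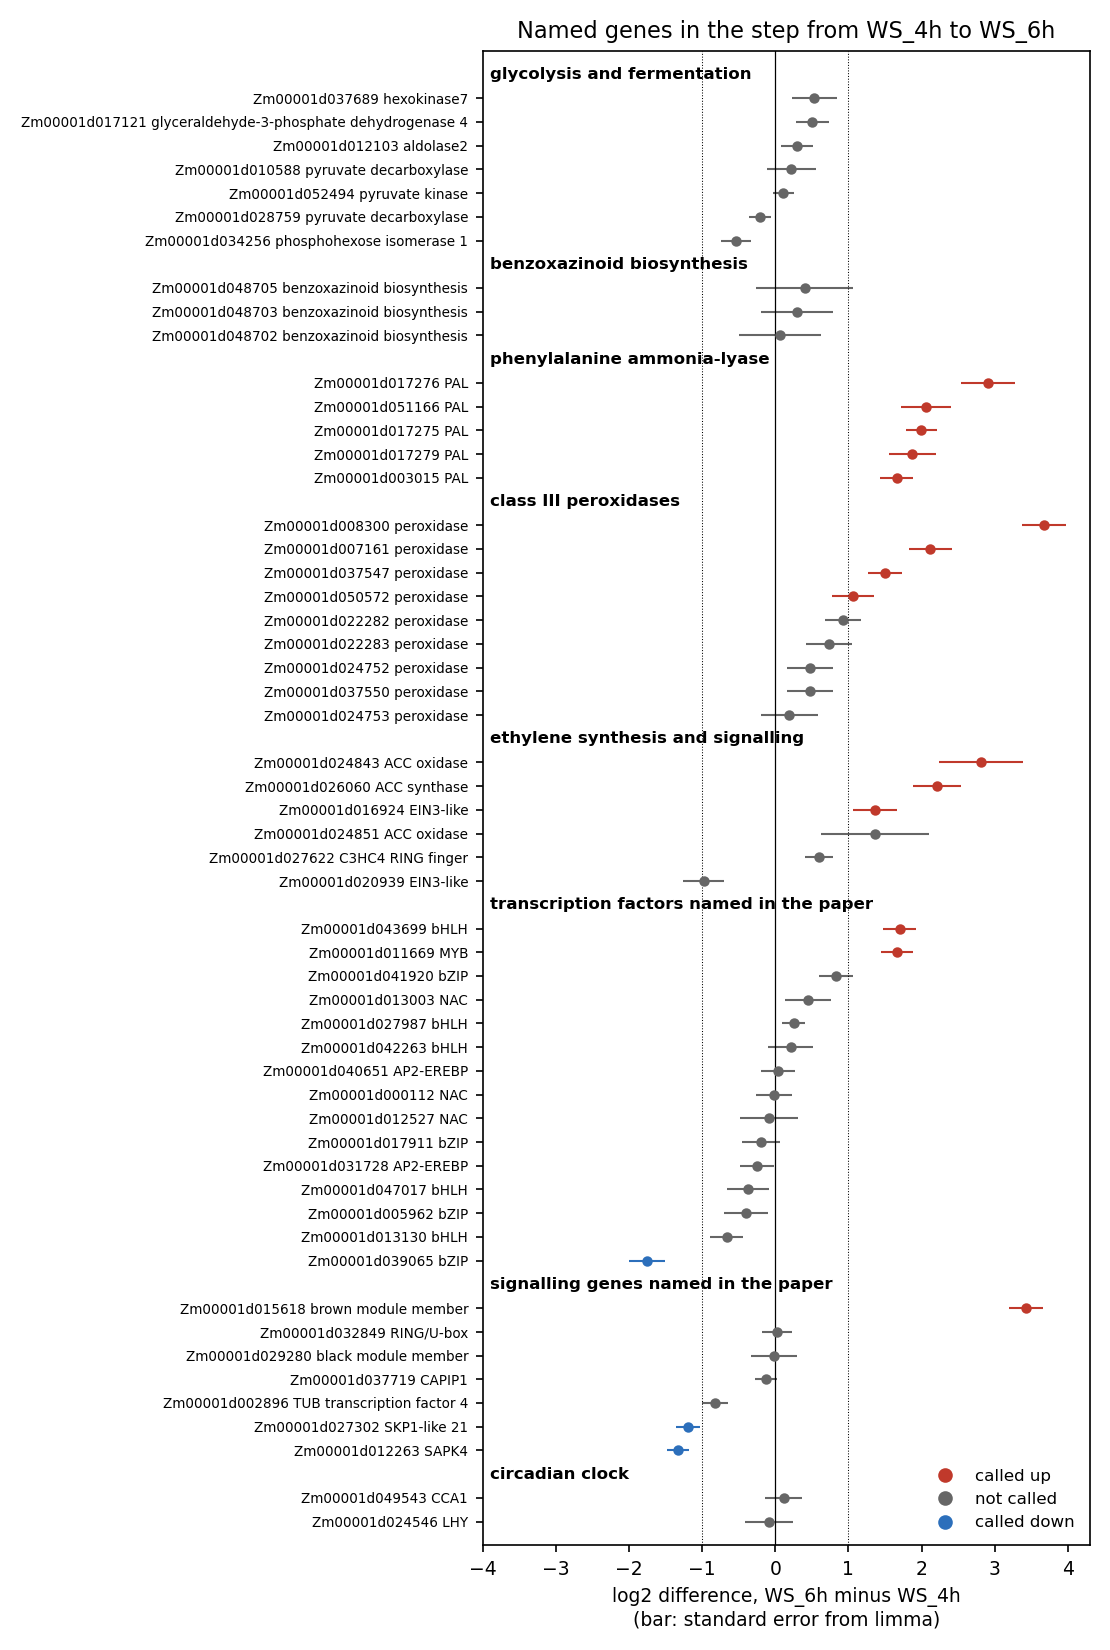
Points are log2 differences WS_6h minus WS_4h of the 54 tested PCgenes named in the study, bars their standard errors from limma (n = 3 libraries per time point), grouped by role, with dotted lines at -1 and 1. Phenylalanine ammonia-lyase (PAL) genes lie between 1.66 and 2.91, all called up, while the 7 glycolysis and fermentation genes lie between -0.54 and 0.53, none called.

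Genes of glycolysis and fermentation gave no reversal call. All 7 were up at WS_4h and at WS_6h against WS_0h, where 20.3% and 9.26% of all PCgenes were. None was called in the step, with a median step of 0.22, while 57.9% of all PCgenes up at WS_4h fell. For Zm00001d028759, a pyruvate decarboxylase, which commits pyruvate to ethanol, the levels were 2339.15, 2173.45 and 2210.16 TPM at WS_6h and 2782.34, 2442.89 and 2536.65 TPM at WS_4h. All 3 WS_6h libraries lay below the WS_4h libraries, by -0.21 ± 0.15 (SE; 95% interval -0.53 to 0.12), and 95.8% of its log2 shift from WS_0h was left. The other pyruvate decarboxylase, Zm00001d010588, had 710.42, 689.61 and 797.23 TPM at WS_6h and 446.6, 830.32 and 665.69 TPM at WS_4h, with overlapping groups, after a mean of 0.293 TPM at WS_0h and 70.5 TPM at WS_2h. Its step was 0.22 ± 0.34.

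Within glycolysis the steps went in both directions. Zm00001d034256, phosphohexose isomerase 1, which converts glucose 6-phosphate to fructose 6-phosphate, had 499.08, 516.29 and 745.4 TPM at WS_6h, against 896, 789.61 and 829.76 TPM at WS_4h, with no overlap. Its difference of -0.54 ± 0.21 had a limma adjusted p of 0.0308 but missed the fold threshold. Zm00001d017121, glyceraldehyde-3-phosphate dehydrogenase 4, had 2210.34, 2126.23 and 2182.99 TPM at WS_6h, against 1580.91, 1545.2 and 1462.41 TPM at WS_4h (0.51 ± 0.22, limma adjusted p 0.0523), also without overlap. Zm00001d037689, hexokinase7, which phosphorylates glucose at the entry of the pathway, had 324.64, 395.65 and 455.32 TPM at WS_6h and 248.34, 294.23 and 263.24 TPM at WS_4h (0.53 ± 0.31, limma adjusted p 0.132). The WS_6h libraries lay above those of WS_4h in aldolase2 (Zm00001d012103, 0.30 ± 0.22) and overlapped them in pyruvate kinase (Zm00001d052494, 0.11 ± 0.14). Against WS_2h, 5 of the 7 were called up at WS_6h, where 3.53% of all PCgenes were. Of the 1001 PCgenes up at both times with no call in the step, which include these 7, the share was 40.4%.

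Genes of benzoxazinoid biosynthesis, low at WS_4h, gave no reversal call either, while 63.8% of all PCgenes down at WS_4h rose. Benzoxazinoids are indole-derived defence compounds of grasses, and the 3 tested genes code for an indolin-2-one monooxygenase-like protein (Zm00001d048702) and cytochromes P450 (Zm00001d048703 and Zm00001d048705) of their synthesis. Zm00001d048703 had 3.12, 2.62 and 1.65 TPM at WS_6h and 1.18, 1.33 and 3.17 TPM at WS_4h, after means of 61.5 TPM at WS_0h and 21 TPM at WS_2h. Zm00001d048702 had 7.2, 5.97 and 5.1 TPM at WS_6h and 2.59, 8.25 and 8.23 TPM at WS_4h, and Zm00001d048705 had 4.04, 4.77 and 1.72 TPM at WS_6h and 0.63, 3.46 and 3.72 TPM at WS_4h. Groups overlapped in all 3. The steps were 0.30 ± 0.49, 0.06 ± 0.56 and 0.40 ± 0.66, and the widest 95% interval ran from -0.98 to 1.79, so a difference of 1 could not be told from none. All 3 were down at WS_6h against WS_0h and against WS_2h, where 6.09% and 2.20% of all PCgenes were down. Of the 607 PCgenes down at both times with no call in the step, which include these 3, 28.8% were down against WS_2h.

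PAL, the entry enzyme of phenylpropanoid and lignin synthesis, did the opposite. All 5 named PAL genes rose in the step after a call down at WS_4h, where 63.8% of all PCgenes down at WS_4h rose. Zm00001d017275, the most abundant, had 184.92, 169.15 and 139.24 TPM at WS_6h, against 25.39, 53.18 and 48.11 TPM at WS_4h (1.99 ± 0.21, limma adjusted p 3.8e-07), after means of 237 TPM at WS_0h and 231 TPM at WS_2h. Zm00001d017276 had 35.59, 25.96 and 15.5 TPM at WS_6h, against 1.19, 4.06 and 2.48 TPM at WS_4h (2.91 ± 0.37). The other 3, Zm00001d017279, Zm00001d003015 and Zm00001d051166, rose by 1.66 to 2.06. In all 5 the WS_6h libraries lay above the WS_4h libraries, as they did in 37.2% of all PCgenes.

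The return of PAL was not complete. Between 21.1% (Zm00001d017275) and 40.7% (Zm00001d003015) of the log2 shift from WS_0h was left at WS_6h. Zm00001d017279, Zm00001d003015 and Zm00001d051166 were still called down against WS_2h, and Zm00001d003015 and Zm00001d051166 also against WS_0h. In all 5 genes WS_6h replicate 3 was the lowest of its group, for instance 3.48 TPM in Zm00001d051166 beside 9.77 and 7.68 TPM in the other two. PAL genes, like the peroxidases, cytochromes P450 and ACC oxidases named here, belong to families of similar sequences, and reads shared between copies were not examined.

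Peroxidases of the secreted class act on hydrogen peroxide and, in cell walls, couple lignin precursors. Of 12 named, 9 were tested and 4 rose, none fell, and all 9 differences were above 0 (0.19 to 3.67). Of all PCgenes 18.6% rose. The 4 that rose were among 5 of these peroxidases called down at WS_4h, and 63.8% of all PCgenes down at WS_4h rose. Zm00001d008300 had 54.35, 35.67 and 18.07 TPM at WS_6h, against 2.21, 1.58 and 1.26 TPM at WS_4h, a difference of 3.67 ± 0.30 (limma adjusted p 2.45e-08) and the largest of all 54 named genes. It had held means of 104 TPM at WS_0h and 100.02 TPM at WS_2h and stayed called down against both at WS_6h. Zm00001d007161 had 47.06, 35.32 and 22.44 TPM at WS_6h, against 4.82, 10.44 and 6.47 TPM at WS_4h (2.12 ± 0.30). Zm00001d037547, the most abundant, had 350.2, 270.88 and 198.83 TPM at WS_6h, against 86.91, 96.5 and 97.89 TPM at WS_4h (1.5 ± 0.23), and its WS_6h mean was back at the WS_0h level (log2 shift left -0.98%).

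The other peroxidases lay near or below the threshold. Zm00001d050572 rose by 1.06 ± 0.29 (limma adjusted p 0.00362), a call lost without WS_4h replicate 1 (0.83), WS_4h replicate 2 (0.97) or WS_6h replicate 1 (0.89). Zm00001d022282 (0.93) and Zm00001d022283 (0.74) were not called in the full set, but were without WS_4h replicate 2 (1.09 and 1.01) or WS_6h replicate 3 (1.18 and 1.06), and Zm00001d022282 also with a pseudocount of 0.1 TPM (1.5). Zm00001d024753 had 7.33, 4.09 and 2.43 TPM at WS_6h and 6.86, 1.26 and 4.48 TPM at WS_4h, with overlapping groups (0.19 ± 0.39), and it was down at both times against WS_0h. The family held genes that moved back and genes that did not pass the test.

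An ACC synthase and an ACC oxidase rose in the step after lower levels at WS_4h than at WS_2h. Zm00001d026060, an ACC synthase, the enzyme that makes the ethylene precursor, had 28.34, 26.21 and 20.26 TPM at WS_6h, against 3.44, 6.82 and 3.87 TPM at WS_4h (2.22 ± 0.33, limma adjusted p 1.32e-05). Its means were 9.45 TPM at WS_0h and 24.5 TPM at WS_2h, so at WS_6h it stood again at its WS_2h level (0.07 against WS_2h). Zm00001d024843, an ACC oxidase, which turns ACC into ethylene, had 53.22, 61.52 and 40.59 TPM at WS_6h, against 3.16, 13.78 and 5.59 TPM at WS_4h (2.81 ± 0.57, limma adjusted p 3.13e-04), after means of 18.2 TPM at WS_0h and 41.3 TPM at WS_2h.

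The remaining ACC oxidases were low. Zm00001d024851 had 2.47, 2.56 and 1.37 TPM at WS_6h and 0.49, 0.11 and 0.04 TPM at WS_4h, without overlap. Its difference of 1.36 ± 0.74 was not called (limma adjusted p 0.111), but was in a fit of only these 6 libraries (adjusted p 0.00153 by limma) and with a pseudocount of 0.1 TPM (3.06). Zm00001d024850 and Zm00001d024852 lay below the filter, at 1.63, 1.78 and 0.96 TPM and at 0.8, 0.54 and 0.14 TPM at WS_6h, against 0.7, 0.08 and 0.03 TPM and 0.11, 0.24 and 0.03 TPM at WS_4h. All 4 ACC oxidases therefore had a higher mean at WS_6h, and 1 was called.

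Ethylene signalling genes took separate courses. The EIN3-like factors pass the ethylene signal to target genes in the nucleus. Zm00001d016924, an EIN3-like gene, had 6.26, 10.97 and 7.98 TPM at WS_6h, against 0.98, 3.36 and 4.3 TPM at WS_4h, after means of 0.047 TPM at WS_0h and 0.52 TPM at WS_2h. It was among the 120 PCgenes up at WS_4h that rose further (1.36 ± 0.30, limma adjusted p 6.04e-04), a call lost without WS_4h replicate 1 (0.94). Zm00001d020939, the other EIN3-like gene, had 29.52, 33.81 and 40.76 TPM at WS_6h, against 84.3, 51.11 and 75.14 TPM at WS_4h. Its difference of -0.98 ± 0.28 missed the fold threshold, which it passed without WS_4h replicate 2 (-1.19) or WS_6h replicate 3 (-1.10) and after median-ratio rescaling (-1.01). Zm00001d027622, a RING finger gene the study links to ethylene signalling, had 53.61, 59.38 and 62.68 TPM at WS_6h, against 29.69, 47.28 and 40.06 TPM at WS_4h (0.60 ± 0.19, not called).

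Transcription factors named in the study came from the NAC, MYB, AP2-EREBP, bHLH and bZIP families. Of 15 tested, 13 were up at WS_4h against WS_0h, where 20.3% of all PCgenes were. In the step 2 rose, 1 fell and 12 were not called, where 32.8% of all PCgenes were called. Among all PCgenes up at WS_4h, 57.9% fell in the step and 2.64% rose. The AP2-EREBP gene Zm00001d040651, of the family that holds the ethylene response factors, had 134.97, 119.76 and 125.14 TPM at WS_6h and 99.71, 143.34 and 130.58 TPM at WS_4h, after means of 0.53 TPM at WS_0h and 56.4 TPM at WS_2h. Its step was 0.04 ± 0.23 (95% interval -0.44 to 0.52). Zm00001d031728, of the same family, had 25.68, 22.5 and 21.66 TPM at WS_6h and 25.42, 30.12 and 27.91 TPM at WS_4h (-0.25 ± 0.24). In both genes the groups overlapped.

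The NAC genes, of a plant family with many stress regulators, were not called either. Zm00001d000112 had 116.2, 105.23 and 86.55 TPM at WS_6h and 89.06, 133.77 and 93.15 TPM at WS_4h (-0.02 ± 0.25). Zm00001d012527 had 83.92, 89.98 and 99.4 TPM at WS_6h and 97.5, 99.68 and 92.9 TPM at WS_4h (-0.09 ± 0.39), and Zm00001d013003 had 511.25, 538.88 and 514.84 TPM at WS_6h, above 316, 459.99 and 384.08 TPM at WS_4h (0.45 ± 0.31, not called). None of the 3 was called at WS_6h against WS_2h, where 5.73% of all PCgenes were called in either direction. Of the 1001 PCgenes up at both times with no call in the step, which include these 3, 40.4% were called up. The NAC levels at WS_6h were therefore not separated from those at WS_2h, as for most PCgenes.

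In the step 1 named bHLH gene rose and 1 named bZIP gene fell. The bZIP gene Zm00001d039065 fell to 9.35, 13 and 15.32 TPM at WS_6h, against 70.42, 27.89 and 43.35 TPM at WS_4h (-1.76 ± 0.25, limma adjusted p 8.62e-06), but 53.9% of its log2 shift from WS_0h was left. The other bZIP genes were not called, with differences of 0.83 (Zm00001d041920, called without WS_4h replicate 2 at 1.09), -0.20 (Zm00001d017911) and -0.40 (Zm00001d005962). The bHLH gene Zm00001d043699 had 5.49, 5.35 and 7.53 TPM at WS_6h, against 0.51, 2.08 and 1.19 TPM at WS_4h, and means of 0.377 TPM at WS_0h and 3.06 TPM at WS_2h (1.70 ± 0.23, limma adjusted p 4.24e-06). The other bHLH genes had steps of -0.66 to 0.25, and none was called.

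MYB factors include many regulators of phenylpropanoid and root genes. Zm00001d011669 had 3.22, 2.28 and 1.47 TPM at WS_6h, against 0, 0 and 0.08 TPM at WS_4h, and rose by 1.66 ± 0.22 (limma adjusted p 4.06e-06), with 52.9% of its log2 shift from WS_0h left. Zm00001d035918 lay below the filter, with 0.96, 0.4 and 0.19 TPM at WS_6h and 0.04, 0.16 and 0.14 TPM at WS_4h.

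**Figure D5:**
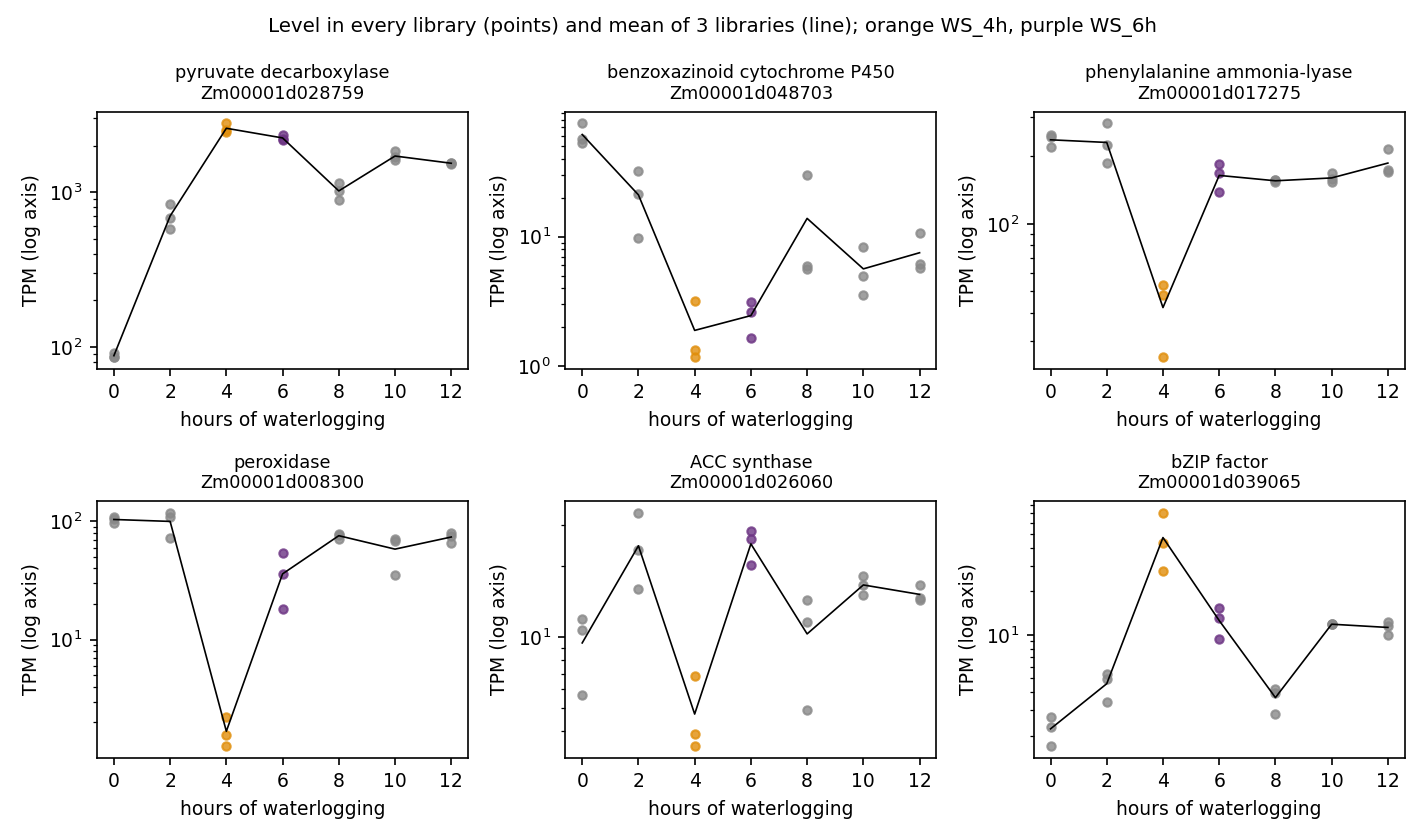
Points are the TPM of each of the 21 libraries on a log axis against hours of waterlogging, and lines join the means of 3 libraries, for 6 named PCgenes, with WS_4h in orange and WS_6h in purple. Pyruvate decarboxylase (Zm00001d028759) and the benzoxazinoid gene Zm00001d048703 were not called in the step. PAL (Zm00001d017275), peroxidase (Zm00001d008300) and the bZIP gene Zm00001d039065 moved back toward WS_0h. ACC synthase (Zm00001d026060), not called at WS_4h against WS_0h, rose past its WS_0h level.

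Of 7 other named genes tested, 2 fell, 1 rose and 4 were not called, where 32.8% of all PCgenes were called. They were signalling genes and 2 genes whose function the study does not give by ID. The riser, Zm00001d015618, was among the latter. SAPK4 (Zm00001d012263), a serine/threonine protein kinase, had 3.52, 4.68 and 5.49 TPM at WS_6h, against 13.3, 12.38 and 12.86 TPM at WS_4h (-1.33 ± 0.14, limma adjusted p 5.05e-07), and its means were 2.74 TPM at WS_0h and 3.80 TPM at WS_2h. An SKP1-like gene (Zm00001d027302) fell to 15.7, 15.42 and 20.25 TPM at WS_6h, against 43.57, 35.87 and 41.15 TPM at WS_4h (-1.19 ± 0.17), with 64.8% of its log2 shift left. A TUB transcription factor (Zm00001d002896) had 99.14, 111.01 and 116.23 TPM at WS_6h, against 194.44, 175.4 and 212.05 TPM at WS_4h, a difference of -0.83 ± 0.17 (limma adjusted p 4.51e-04) that missed the fold threshold. These 3 genes had no overlap between the groups, which was common in the step. Of all PCgenes 34.6% had all WS_6h libraries below the WS_4h libraries, as here, and 37.2% had all above.

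A RING/U-box gene (Zm00001d032849) was almost level, at 136.77, 135.31 and 141.45 TPM at WS_6h and 142.22, 126.38 and 139.42 TPM at WS_4h (0.02 ± 0.21), and turned to -0.016 after median-ratio rescaling. The 2 PCgenes whose function the study does not give by ID came from its pairs of co-expressed genes. Zm00001d015618 had 116.46, 91.83 and 66.26 TPM at WS_6h, against 5.36, 10.77 and 6.88 TPM at WS_4h (3.43 ± 0.23, limma adjusted p 2.76e-09). Zm00001d029280 had 41.51, 26.44 and 30.09 TPM at WS_6h and 17.01, 50.03 and 39.7 TPM at WS_4h (-0.01 ± 0.31). The study places Zm00001d029280 in a module whose up-regulated PCgenes it describes as peroxidases, so it may be a further peroxidase. It was not counted with the peroxidases here. The nine-cis-epoxycarotenoid dioxygenase gene Zm00001d018819, of the abscisic acid pathway, lay below the filter, with 1.51, 1.8 and 0.98 TPM at WS_6h and 0.07, 0.16 and 0.32 TPM at WS_4h, after a mean of 5.71 TPM at WS_0h.

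The morning clock genes gave no call in the step. CCA1 (Zm00001d049543) had 8.08, 9.59 and 11.72 TPM at WS_6h and 12.16, 7.96 and 7.19 TPM at WS_4h (0.11 ± 0.25). LHY (Zm00001d024546) had 8.83, 9.81 and 12.31 TPM at WS_6h and 12.53, 9.78 and 10.61 TPM at WS_4h (-0.09 ± 0.32). Groups overlapped in both, and the 95% intervals, -0.41 to 0.64 and -0.77 to 0.59, held no change of 1 in either direction.

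Some PCgenes called in the step had no call at WS_4h against WS_0h, which does not show that they had not moved earlier. Of the 4160 that rose, 838 had no call at WS_4h against WS_0h, and 413 of these were up at WS_6h against WS_0h. Of the 3194 that fell, 556 had no call at WS_4h, and 59 of these were down at WS_6h against WS_0h. With a WS_4h mean within 0.5 of WS_0h on the log2 scale, non-overlapping groups and at least 10 TPM in the higher group, 225 PCgenes rose and 47 fell. The 5 largest rises of this kind lay between 3.30 and 3.84, and the 5 largest falls between -2.08 and -1.53. At WS_6h against WS_2h all 5 rises were called up and 1 of the falls down, where 3.53% and 2.20% of all PCgenes were. That comparison reuses the WS_6h libraries, so picking the largest steps favours these calls. In the 5 that rose, means at WS_2h had also been above those at WS_0h. Among named genes, the bHLH gene Zm00001d043699 and the ACC synthase Zm00001d026060 were among the 413, and both already had a higher mean at WS_2h than at WS_0h.

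At the next time point more named genes fell than rose. Against WS_6h, 17 of the 54 were called down at WS_8h and 4 up, where 5.45% and 1.99% of all PCgenes were. The 17 included all 3 NAC genes and both pyruvate decarboxylases, whose means at WS_8h were 1018 TPM (Zm00001d028759) and 243 TPM (Zm00001d010588). The 4 that rose were the benzoxazinoid genes Zm00001d048703 and Zm00001d048705 and the peroxidases Zm00001d024753 and Zm00001d008300. In both benzoxazinoid genes WS_8h replicate 1 was far above the other replicates. The WS_8h levels were 29.92, 5.97 and 5.67 TPM (Zm00001d048703) and 49.51, 9.83 and 6.84 TPM (Zm00001d048705, limma adjusted p 0.0496). The comparison of WS_8h with WS_6h shares the WS_6h libraries with the step.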

How the data were processed

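The authors used Trimmomatic for trimming, Hisat2 for alignment (B73 RefGen_v4) and featureCounts for gene TPM. The deposited PCgene values are these TPM, for genes with an average above 1 TPM, per library and not pooled. The submitters' processing notes give HISAT2 2.0.5. TPM are not counts and carry no read depth, so no count test, counting error or detection limit is given.

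Here PCgenes averaging over 1 TPM in the WS_6h and WS_4h libraries were taken as log2(TPM + 1) and fitted with limma 3.58.1 in R 4.3.3 (21 libraries, 7 time point means, mean-variance trend, no replicate block), with Benjamini-Hochberg adjustment over 22403 PCgenes. The fit was tested on simulated data. Named genes are the PCgenes the study's text names by a complete ID (2 IDs printed with a missing or added digit were left out), and the 10 largest steps in each direction among called, non-overlapping PCgenes of at least 10 TPM, of which 2 each are printed. The members, lists and tests were chosen with earlier results of these data known. Gene lists defined by annotation text could not be applied, because no table pairs these IDs with descriptions. lncRNA values, other comparisons and sequences were not used here. Alternatives tried were no trend, a replicate block, a pseudocount of 0.1 TPM, a fit limited to the libraries compared, median-ratio rescaling, no filter or a filter above 5 TPM, WS_2h as baseline, and leaving out each library. Figures were drawn with matplotlib 3.10.9.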

Additional observations from a re-analysis of the deposited data

How the results depend on the processing

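The counts of PCgenes that rose or fell in the step, that reversed, or that were shifted at WS_4h and called against WS_2h stayed within 1.5 times under every alternative run. Of the other counts, PCgenes that fell without a call at WS_4h numbered 837 with a pseudocount of 0.1 TPM, 334 with a filter above 5 TPM and 335 with WS_2h as baseline, against 556. PCgenes down at both times without a call in the step numbered 202 with that filter and 182 with WS_2h as baseline, against 607, and those up at both times 305 with WS_2h as baseline, against 1001. The filter tests fewer genes, and the cause of the other changes was not tested. Of 58 genes named, 6 changed their call when a library was left out and 3 in another setting, all given with the results. Changes of sign were found only in genes with no call: Zm00001d032849 (-0.016 after rescaling), and 11 genes when a library was left out, with ranges of -0.13 to 0.16 (Zm00001d000112), -0.024 to 0.42 (Zm00001d010588), -0.21 to 0.0091 (Zm00001d024546), -0.32 to 0.58 (Zm00001d024753), -0.46 to 0.29 (Zm00001d029280), -0.031 to 0.054 (Zm00001d032849), -0.11 to 0.15 (Zm00001d040651), -0.21 to 0.58 (Zm00001d042263), -0.39 to 0.29 (Zm00001d048702), -0.10 to 0.73 (Zm00001d048705) and -0.022 to 0.32 (Zm00001d049543). Same-numbered WS_4h and WS_6h libraries did not deviate together from their means (r of -0.10, 0.05 and -0.04), and no WS_4h library correlated best with its own number. Same-numbered WS_2h and WS_6h libraries did deviate together for replicates 1 and 3 (r of 0.38 and 0.58), but not for replicate 2 (0.03). WS_2h replicate 1 with WS_6h replicate 3 gave -0.36, and WS_2h replicate 3 with WS_6h replicate 1 gave -0.59. A replicate block gave 4180 PCgenes that rose and 3195 that fell, against 4160 and 3194. With it, PCgenes shifted at WS_4h and called at WS_6h against WS_2h numbered 1117, against 1101. Without a mean-variance trend every count was listed unchanged, although standard errors of single genes moved, for Zm00001d028759 from 0.1534 to 0.1279. Whether the counts reflect that refit was not checked, so no conclusion about the trend is drawn from them.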
